A study of Homo sapiens with 16 samples.

Results

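THP-1 is a human monocytic line from an acute leukemia that carries the MLL-AF9 fusion, and phorbol-12-myristate-13-acetate (PMA) makes it stop dividing, adhere and take on macrophage features. The comparison described here is between THP-1 cells with a hairpin aimed at DNMT3B (shDNMT3B) and cells with a non-targeting hairpin (shNC), both after 48 h in 100 ng/ml PMA. It rests on 4 of the 16 RNA sequencing libraries of the series, 2 per group, and was read across the 16503 genes that passed a filter on low counts, of 60676 genes listed. The members were taken by the condition in the names of the count columns, because the description of 12 of the 16 samples names another condition than its title and column. Both lines were made with lentiviral hairpin vectors and selected with puromycin, and each knockdown is 1 hairpin in 1 stable line. The same lines in DMSO, the solvent, and the lines shUHRF1 and shDNMT1 in DMSO and PMA, 2 libraries each, show where the comparison differs from them. The shUHRF1 and shDNMT1 lines also gave the classes of PMA-responsive genes. All 16 libraries entered the estimate of the spread behind the p values. Whether the 2 libraries of a group came from separate cultures is not stated in the sources used here. The p values therefore measure the spread between libraries of equal condition, estimated over all 16 libraries.

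DNMT3B is a de novo DNA methyltransferase, which sets methyl groups on CpG sites that carried none. DNMT1 copies the marks to the new strand after replication, guided by UHRF1, which binds hemimethylated DNA. In the monocyte to macrophage transition, cells leave the cell cycle, shut down progenitor genes and switch on genes for phagocytosis, lysosomes, adhesion and inflammation.

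The targeted transcript was not lower in its own knockdown libraries after PMA. DNMT3B (ENSG00000088305, chromosome 20, 32762385 to 32809359, hg38) stood at 1.26 and 1.59 CPM (counts scaled by TMM and library size) in the 2 shNC PMA libraries and at 2.74 and 3.19 in the 2 libraries labelled shDNMT3B. The groups did not overlap, and the higher level was in the knockdown (log2 fold change 1.06 ± 0.23 SE, n = 2 per group, adjusted p = 0.00688 with the quasi-likelihood test of edgeR). The call was lost without shNC PMA replicate 1 (0.90, edgeR adjusted p = 0.0797) and without shDNMT3B PMA replicate 2 (0.95, edgeR adjusted p = 0.0514). In DMSO the order was the opposite, with 8.73 and 9.73 CPM in shNC and 6.40 and 6.87 in shDNMT3B, a difference of −0.48 on the log2 scale that did not pass the test (edgeR adjusted p = 0.212). The change of this contrast between DMSO and PMA passed (1.54, SE 0.30, edgeR adjusted p = 0.00791). After PMA, DNMT3B in the libraries labelled shDNMT3B differed by 0.86 from shUHRF1 and by 0.18 from shDNMT1 on the log2 scale. The study checked knockdown of its target proteins by western blot, and protein is not measured by these mRNA counts. These counts do not show the knockdown that the label names after PMA, so the group is called the shDNMT3B-labelled libraries throughout. Every direction below is read from that label.

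Of the other enzymes, DNMT3A, the second de novo methyltransferase, stood at 27.5 and 28.2 CPM in shNC and at 39.8 and 36.6 CPM in the shDNMT3B-labelled libraries (log2 fold change 0.45, edgeR adjusted p = 0.0951, and 0.0129 with the replicate number as a block). DNMT1 overlapped between the groups, with 56.9 and 78 CPM against 70.4 and 102 (0.35, edgeR adjusted p = 0.441, and 0.0234 with the block). UHRF1 was higher, with 4.62 and 7.43 CPM in shNC against 26.2 and 34.0 (2.33, SE 0.29, edgeR adjusted p = 1.5e-04). HELLS, a helicase that opens chromatin to the methyltransferases, was at 1.73 and 1.95 against 11.3 and 10.6 CPM (2.57, edgeR adjusted p = 2.2e-05). CDCA7, its partner in nucleosome remodeling, was at 0.893 and 0.722 against 8.85 and 10.2 CPM (3.53, edgeR adjusted p = 3.4e-05). UHRF1, HELLS and CDCA7 lay well apart in all 4 libraries. Against shDNMT1 after PMA they differed by −0.19, 0.20 and 2.03. Of the 20 measured genes of the DNA methylation machinery, 5 were higher and 3 lower (8 and 6 with the block). With any 1 of the 4 libraries left out 3 to 6 were higher and 1 or 2 lower. The same rule, an edgeR adjusted p under 0.05, called 11.3% of all genes higher and 9.05% lower. With the block it called 3376 and 3213 of the 16503 genes tested.

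**Figure D1:**
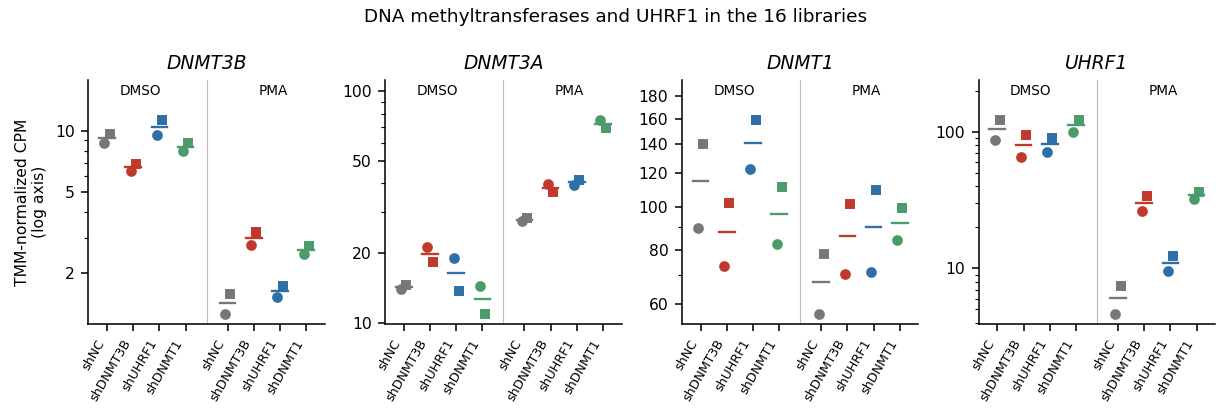
TMM-normalized CPM (log axis) of DNMT3B, DNMT3A, DNMT1 and UHRF1 in the 16 libraries, by line and treatment, with circles for replicate 1, squares for replicate 2 and a bar at the mean of the 2 libraries. After PMA the shDNMT3B-labelled libraries lie above shNC for DNMT3B (2.74 and 3.19 against 1.26 and 1.59 CPM) and for UHRF1 (26.2 and 34.0 against 4.62 and 7.43 CPM).

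Across all genes, 1786 were higher in the shDNMT3B-labelled libraries (10.8% of the genes tested) and 1294 were lower (7.84%) at an edgeR adjusted p under 0.05 and a change above 1.5-fold. The median log2 fold change of all genes tested was 0.04. With the replicate number as a block the counts were 2684 higher and 1966 lower. Each library mattered to the counts: they were 927 and 717 without shNC PMA replicate 1, 1030 and 725 without shNC PMA replicate 2, 1015 and 571 without shDNMT3B PMA replicate 1, and 1132 and 657 without shDNMT3B PMA replicate 2. Upper-quartile scaling moved the median of all genes to 0.17 and the split to 2236 higher and 901 lower, so that 71.3% of the calls were higher in place of 58%. In DMSO the same lines differed in fewer genes, with 261 higher (1.58%) and 467 lower (2.83%). Of the genes higher in DMSO, 145 were also higher in PMA, which is 55.6% of the DMSO list and 8.12% of the PMA list. Of those lower in DMSO, 159 were also lower in PMA, 34% and 12.3% of the lists. These comparisons share no library.

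Total counts of the 4 libraries ran from 13883556 to 22852559. Mitochondrially encoded genes took 10.3% and 4.76% of the counts in shNC PMA and 19.5% and 9.35% in the shDNMT3B-labelled PMA libraries, and in both groups replicate 1 had the higher share. Of the 13 mitochondrial genes 0 passed the test of edgeR without the block, 0 had an unadjusted p under 0.05 and 0 passed with DESeq2, while 13 were higher with the block (median log2 fold change 0.75). Of 76 ribosomal protein genes 1 was higher without the block and 47 with it (median 0.48). The part of these shares in the results below was not tested.

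The genes that PMA turns up or down were taken from the shUHRF1 and shDNMT1 lines, which share no library with the main comparison. Genes that fell with PMA in both of those lines (2211 genes) were mostly higher in the shDNMT3B-labelled libraries where they differed: 792 were higher (35.8%) and 23 lower (1.04%), with a median of 0.86. Genes that rose with PMA in both lines (2918 genes) leaned the other way, with 185 higher (6.34%) and 678 lower (23.2%) and a median of −0.39. The 11374 other genes had 809 higher (7.11%) and 593 lower (5.21%). The genes that fell in the other lines had a median PMA response of −2.33 on the log2 scale in shNC and −1.49 in the shDNMT3B line. Those that rose there had 2.16 and 2.05. In the test of the response itself, 429 of the falling genes responded differently with a higher value in the shDNMT3B line and 7 with a lower one, beside 838 (5.08%) and 280 (1.70%) of all genes. Of the rising genes 152 responded with a higher value in the shDNMT3B line and 151 with a lower one.

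**Figure D2:**
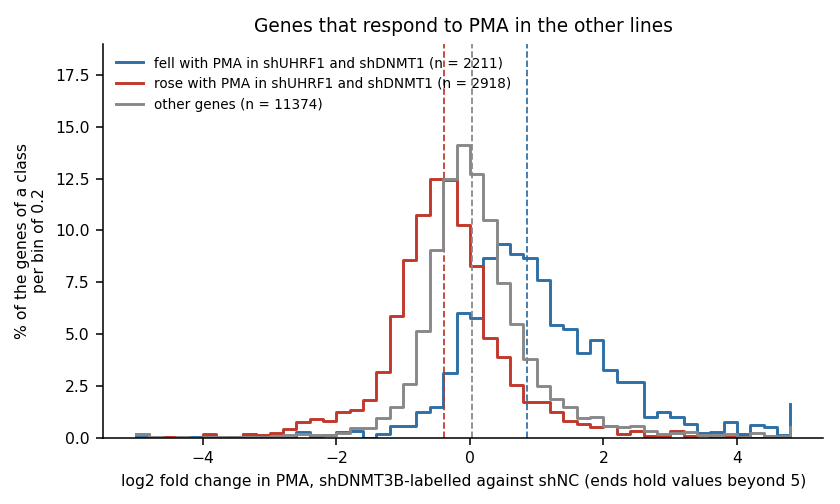
Distribution of the log2 fold change of shDNMT3B-labelled against shNC libraries in PMA, as the percentage of each class per bin of 0.2, for genes that fell with PMA in the shUHRF1 and shDNMT1 lines, genes that rose there and all other genes, with dashed lines at the medians. The falling class is centred at 0.86, the rising class at −0.39 and the other genes at 0.03.

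Cell division held the largest share of higher genes among the lists. Of 77 measured genes of mitosis, 68 were higher in the shDNMT3B-labelled PMA libraries and 0 lower at an edgeR adjusted p under 0.05 without a fold limit, a rule that called 11.3% of all genes higher and 9.05% lower. The same rule called 1864 genes higher and 1493 lower, and 3376 and 3213 with the replicate block. DESeq2 called 69 higher and 0 lower, and at an unadjusted p under 0.05 edgeR had 69 and 0. The list median was 1.96, and 59 to 63 members were higher with any 1 of the 4 libraries left out. The summed level of the list was 451 and 451 CPM in shNC PMA and 1290 and 1340 CPM in the shDNMT3B-labelled PMA libraries, against 6240 and 6010 CPM in shNC DMSO and 4960 and 4780 CPM in shDNMT3B DMSO. The list was therefore far below its DMSO level in both lines, and less far in the shDNMT3B line. Bulk libraries cannot tell more dividing cells from more transcript per cell.

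CDC20 activates the anaphase-promoting complex, and it stood at 7.25 and 6.86 CPM in shNC and at 64.0 and 62.8 CPM in the shDNMT3B-labelled libraries (log2 fold change 3.16, SE 0.17, edgeR adjusted p = 1.5e-06). BUB1B, a kinase-like protein of the spindle checkpoint, was at 3.05 and 3.03 against 15 and 18.2 CPM (2.44, SE 0.20, edgeR adjusted p = 9.0e-06). BIRC5, which encodes survivin of the chromosomal passenger complex, was at 2.84 and 2.31 against 20.4 and 19.4 CPM (2.94, edgeR adjusted p = 7.8e-06). None of these genes overlapped between the groups. KIF20A, a kinesin of the cytokinesis midzone, had a still larger difference of 3.43 (0.526 and 0.577 against 6.23 and 5.74 CPM, edgeR adjusted p = 6.7e-06). TTK, CENPF, TPX2 and CCNB1, a checkpoint kinase, a kinetochore protein, a spindle assembly factor and a mitotic cyclin, differed by 2.47, 2.06, 2.19 and 1.96 on the log2 scale. In DMSO the list median was −0.39, beside −0.02 for all genes tested, and 2 of the 77 genes were lower and 0 higher. With the replicate block 35 were lower and 1 higher in DMSO, while the 2 calls without the block were lost with any 1 of the 4 DMSO libraries left out. CDC20 differed by 0.04 in DMSO (edgeR adjusted p = 0.952). The list did not set the line apart from every other line: 65 members were higher than in shUHRF1 after PMA, but 2 were higher than in shDNMT1, whose PMA libraries had summed levels of 1270 and 1360 CPM. Members of this and the later lists were called against these lines on adjusted p alone. Of all 16503 genes tested, that rule called 1195 higher and 974 lower against shUHRF1, and 876 and 715 against shDNMT1.

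Many promoters of mitotic genes hold the cell cycle homology region (CHR), the letters TTTGAA, through which the DREAM complex silences them in resting cells. The stretches before the starts of CDC20 and BUB1B are printed because both genes are among those with the smallest adjusted p of the list and carry the letters. They come from RefSeq, GRCh38.p14, chr1:43358861-43358980 and chr15:40160949-40161068, both on the plus strand and 120 bases long up to the base before the start, with the CHR in capitals.
CDC20: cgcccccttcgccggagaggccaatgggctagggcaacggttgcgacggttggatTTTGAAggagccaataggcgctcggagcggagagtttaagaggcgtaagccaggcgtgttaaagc
BUB1B: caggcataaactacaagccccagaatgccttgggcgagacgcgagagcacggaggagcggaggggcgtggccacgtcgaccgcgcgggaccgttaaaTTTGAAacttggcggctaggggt
Within 250 bases before the start, TTTGAA or TTCGAA was found on either strand in 27 of the 56 higher mitosis genes with a promoter in the table (48.2%) and in 10% of all 11736 promoters. The letters CCAAT, a frequent partner motif, were in 40 of the 56 (71.4%) and in 35% of all promoters. Of all 64 listed mitosis genes with a promoter in the table, called or not, 50% held the CHR letters and 73.4% held CCAAT. The shares thus belong to the list and do not mark its higher members. A match is a description of these letters and not a measured binding site.

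DNA replication followed with 41 of 59 measured genes higher, 0 lower and a median of 1.03, and 26 to 30 were higher with any 1 of the 4 libraries left out. At an unadjusted p under 0.05 edgeR had 45 higher and 3 lower, and DESeq2 called 42 and 1. CDT1 loads the replicative helicase, and it was at 6.04 and 4.40 CPM in shNC and at 17.5 and 21.2 CPM in the shDNMT3B-labelled libraries (1.88, SE 0.22, edgeR adjusted p = 1.0e-04). CDC6, which acts beside it, was at 3.52 and 3.61 against 13.3 and 12.8 CPM (1.87, edgeR adjusted p = 1.5e-05). The promoter of CDT1 is shown for its E2F motif, the letters TTTCCCGC read on the other strand, in capitals (RefSeq, GRCh38.p14, chr16:88803669-88803788, plus strand).
CDT1: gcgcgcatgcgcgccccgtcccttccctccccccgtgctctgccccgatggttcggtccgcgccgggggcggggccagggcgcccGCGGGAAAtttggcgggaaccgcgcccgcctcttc
The E2F letters TTTGGCGC, TTTCGCGC, TTTCCCGC or TTTGCCGC were in 10 of 37 higher replication genes with a promoter in the table (27%) and in 4.29% of all promoters. They were in 13 of all 51 listed replication genes with a promoter (25.5%), called or not.

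Of 71 DNA repair genes 21 were higher and 5 lower (29 and 11 with the replicate block), and 13 to 18 were higher and 1 or 2 lower with any 1 of the 4 libraries left out. Most of the higher ones named by rule act on replication forks and in homologous recombination. Examples were the helicase gene BLM (3.10 and 3.97 against 12.5 and 10.7 CPM, 1.72, edgeR adjusted p = 4.9e-05) and the nuclease gene EXO1 (3.10 and 2.67 against 9.03 and 8.86 CPM, 1.62, edgeR adjusted p = 2.2e-04). Control of G1 was mixed, with 8 of 32 genes higher and 3 lower (12 and 10 with the block, and 6 or 7 and 1 with any 1 library left out). Among the higher were CCNE1, the cyclin of S phase entry (1.33, edgeR adjusted p = 7.8e-04), and MYBL2, a transcription factor of the cell cycle (2.2, edgeR adjusted p = 4.2e-05).

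Genes of the myeloid progenitor and MLL-AF9 program were more often higher than lower, with 12 of 31 higher and 2 lower and a median of 0.40. With any 1 of the 4 libraries left out, 7 to 9 were higher and 1 lower. FLT3, a receptor kinase of blood progenitors, stood at 3.42 and 2.45 CPM in shNC PMA and at 20.2 and 20.3 CPM in the shDNMT3B-labelled libraries (2.77, SE 0.23, edgeR adjusted p = 9.5e-06). Its DMSO level was 17.2 and 19.6 CPM in shNC and 18.3 and 20.2 CPM in shDNMT3B, so the shDNMT3B-labelled PMA libraries stood beside the untreated ones. MYB, a transcription factor of immature blood cells, was at 5.78 and 9.31 against 28.5 and 32.0 CPM after PMA (2.01, SE 0.24, edgeR adjusted p = 1.5e-04), and at 265 to 337 CPM in DMSO in the 4 libraries of both lines. HOXA10 and GFI1, transcription factors of the same stage, had log2 fold changes of 1.39 and 1.34 (edgeR adjusted p = 1.4e-04 and 5.6e-05). The list did not set the line apart from shDNMT1 after PMA, with 1 member higher, 5 lower and a median of −0.06. FLT3, MYB, HOXA10 and GFI1 differed from shDNMT1 by 0.48, −0.88, 0.26 and −0.56. Against shUHRF1 after PMA 9 members were higher and 2 lower, with a median of 0.04.

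Macrophage genes went both ways. Of 42 differentiation markers 7 were higher and 12 lower (11 and 15 with the replicate block), with a median of −0.12, and with any 1 of the 4 libraries left out 6 or 7 were higher and 5 to 7 lower. Their summed level was 75100 and 60900 CPM in shNC PMA and 47600 and 41400 CPM in the shDNMT3B-labelled PMA libraries, against 3020 to 4610 CPM in the 4 DMSO libraries of both lines. Monocyte and macrophage markers were present in all 4 libraries: of 12 defining markers 11 passed the filter, and their sum was 19600 and 16400 CPM in shNC and 8500 and 8170 CPM in the shDNMT3B-labelled libraries. MMP9 alone made up 14500 and 11700 CPM of the shNC sums, and without it, a sum taken after the values were seen, the markers stood at 5100 and 4700 CPM in shNC and at 3600 and 3380 CPM in the shDNMT3B-labelled libraries. MRC1, the mannose receptor, did not pass the filter.

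CSF1R, the receptor for the macrophage growth factor, was at 1270 and 1120 CPM in shNC and at 684 and 651 CPM in the shDNMT3B-labelled libraries (−0.84, SE 0.17, edgeR adjusted p = 0.00438). CSF1, which encodes that growth factor, was at 2190 and 2150 against 305 and 286 CPM (−2.88, SE 0.28, edgeR adjusted p = 3.4e-05). Receptor and ligand were thus both lower. LPL, lipoprotein lipase, was at 1820 and 1840 against 1030 and 998 CPM (−0.85, edgeR adjusted p = 0.00357). CD68, a protein of late endosomes, did not differ beyond the spread, with 1270 and 1030 against 1210 and 1080 CPM (−0.00, edgeR adjusted p = 0.997), nor did ITGAM, which encodes CD11b, with 194 and 215 against 198 and 216 CPM (0.02, edgeR adjusted p = 0.971). MMP9, a gelatinase and the most abundant of these markers, was at 14500 and 11700 against 4900 and 4790 CPM (−1.43, edgeR adjusted p = 0.0362), and CD14, the lipopolysaccharide co-receptor, was at 4.26 and 4.04 against 17.3 and 9.5 CPM (1.69, edgeR adjusted p = 0.00984). Neither call was stable to the libraries used. For MMP9 it was lost without any 1 of the 4 libraries (−1.58 to −1.27, edgeR adjusted p from 0.0833 to 0.158), and for CD14 without either shNC replicate or shDNMT3B replicate 1 (1.19 to 1.73, edgeR adjusted p from 0.0649 to 0.114).

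Several genes of lipid uptake and storage were far higher. PPARG is a nuclear receptor that turns on fatty acid handling in macrophages, and LXR does the same for cholesterol efflux. Of 27 genes of this list 11 were higher and 4 lower, with a median of 0.31, and 9 or 10 were higher with any 1 of the 4 libraries left out. FABP4, a fatty acid carrier and a target of PPARG, was at 23.2 and 14 CPM in shNC and at 2110 and 1470 CPM in the shDNMT3B-labelled libraries (6.58, SE 0.37, edgeR adjusted p = 1.5e-06). CD36, a scavenger receptor for fatty acids and oxidized lipoproteins, was at 40.0 and 41.5 against 463 and 455 CPM (3.49, SE 0.22, edgeR adjusted p = 2.3e-06). PLIN2, the coat protein of lipid droplets, was at 539 and 471 against 4630 and 4520 CPM (3.18, SE 0.19, edgeR adjusted p = 2.0e-06). PDK4, a kinase that turns off pyruvate dehydrogenase, had no count in either shNC PMA library and 12.6 and 9.71 CPM in the shDNMT3B-labelled ones. This is at least 122-fold higher when 3 counts in the whole shNC group are taken as the floor. Against shUHRF1 and shDNMT1 in PMA the log2 fold change of PDK4 was smaller, 2.68 and 1.92. PPARG itself was at 50.6 and 46.8 against 58.4 and 62.5 CPM, a difference of 0.31 that did not pass (edgeR adjusted p = 0.186, and 0.045 with the block). CYP27A1, an oxysterol-forming enzyme, differed by 3.05 in PMA and by 3.37 in DMSO (edgeR adjusted p = 3.6e-06 and 3.4e-06). In DMSO FABP4, PLIN2 and PDK4 differed by 5.68, 1.63 and 2.82 (edgeR adjusted p = 1.7e-04, 1.6e-04 and 0.00239). The FABP4 value rests on 2 counts in shNC DMSO. CD36 differed by −0.58 in DMSO, which did not pass (edgeR adjusted p = 0.161).

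Scavenger, Fc and complement receptors divided into 10 higher and 8 lower of 41, and with any 1 of the 4 libraries left out 6 to 8 were higher and 2 to 4 lower. The same rule called 11.3% of all genes higher and 9.05% lower. Against shUHRF1 after PMA 5 members were higher and 10 lower, and against shDNMT1 2 and 7. The members named by rule, CD36 above and the 3 receptors that follow, are all among the higher ones, and the 8 lower ones are not described. MARCO, a scavenger receptor for bacteria, was at 1.10 and 0.577 against 11.8 and 10.1 CPM (3.66, edgeR adjusted p = 1.5e-04). VSIG4, a complement receptor of resident macrophages, was at 4.94 and 5.92 against 35.2 and 28.0 CPM (2.55, edgeR adjusted p = 2.8e-05). In DMSO it differed by 4.61 (edgeR adjusted p = 2.9e-06), and the difference of the PMA responses was −2.06 (edgeR adjusted p = 0.00755). SCARB1, the receptor for high-density lipoprotein, was at 32.2 and 33.0 against 92.4 and 78.9 CPM (1.39, edgeR adjusted p = 1.2e-04). These receptors did not overlap between the groups. SELENOP, a selenium carrier, was among the 12 largest rises, at 0.315 and 0.144 against 6.05 and 8.15 CPM (4.85, edgeR adjusted p = 5.1e-04). It differed by 3.02 in DMSO (edgeR adjusted p = 0.037).

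Cholesterol biosynthesis was lower as a list before and after PMA. Of 31 genes 24 were lower and 0 higher in PMA, with a median of −1.49, and the counts in DMSO were the same, with a median of −1.47 beside −0.02 for all genes tested. The DMSO rule without a fold limit called 1.62% of all genes higher and 2.89% lower. At an unadjusted p under 0.05 the PMA counts were 0 higher and 25 lower, as with DESeq2. Leaving out any 1 library left 20 to 22 lower in PMA and 17 to 21 in DMSO. The summed level was 3880 and 3680 CPM in shNC PMA, 1300 and 1220 CPM in shDNMT3B-labelled PMA, 2700 and 2690 CPM in shNC DMSO and 1230 and 1120 CPM in shDNMT3B DMSO. The sums were higher in PMA than in DMSO in shNC and nearly level in the shDNMT3B line, and 2 of the 31 genes passed the test of the difference of the PMA response, both lower.

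INSIG1, which holds the pathway's transcription factors in the endoplasmic reticulum, was at 800 and 693 CPM in shNC and at 129 and 106 CPM in the shDNMT3B-labelled libraries (−2.66, SE 0.22, edgeR adjusted p = 1.0e-05). SREBF2, which encodes the master transcription factor SREBP2, was at 231 and 227 against 69.6 and 64.0 CPM (−1.78, SE 0.17, edgeR adjusted p = 2.6e-05). IDI1, an enzyme of isoprenoid synthesis, was at 65.1 and 64.7 against 14.6 and 15.6 CPM (−2.11, edgeR adjusted p = 4.1e-06). None of these genes overlapped between the groups in PMA. SREBP2 also acts on its own promoter through a sterol regulatory element, and the stretch is shown with the letters TCACNCCAC in capitals (RefSeq, GRCh38.p14, chr22:41832952-41833104, plus strand).
SREBF2: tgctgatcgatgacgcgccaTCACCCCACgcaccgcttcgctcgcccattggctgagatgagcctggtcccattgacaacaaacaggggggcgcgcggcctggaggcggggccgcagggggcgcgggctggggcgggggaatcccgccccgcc
SREBF2 was the 1 of 17 lower members with a promoter in the table that held these letters on either strand within 250 bases (5.88%), beside 0.835% of all promoters. It was also the 1 of all 24 listed members with a promoter (4.17%). The list was also lower than in shDNMT1 after PMA, with 16 genes lower and a median of −0.80, and 5 were lower than in shUHRF1, with a median of −0.22.

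**Figure D3:**
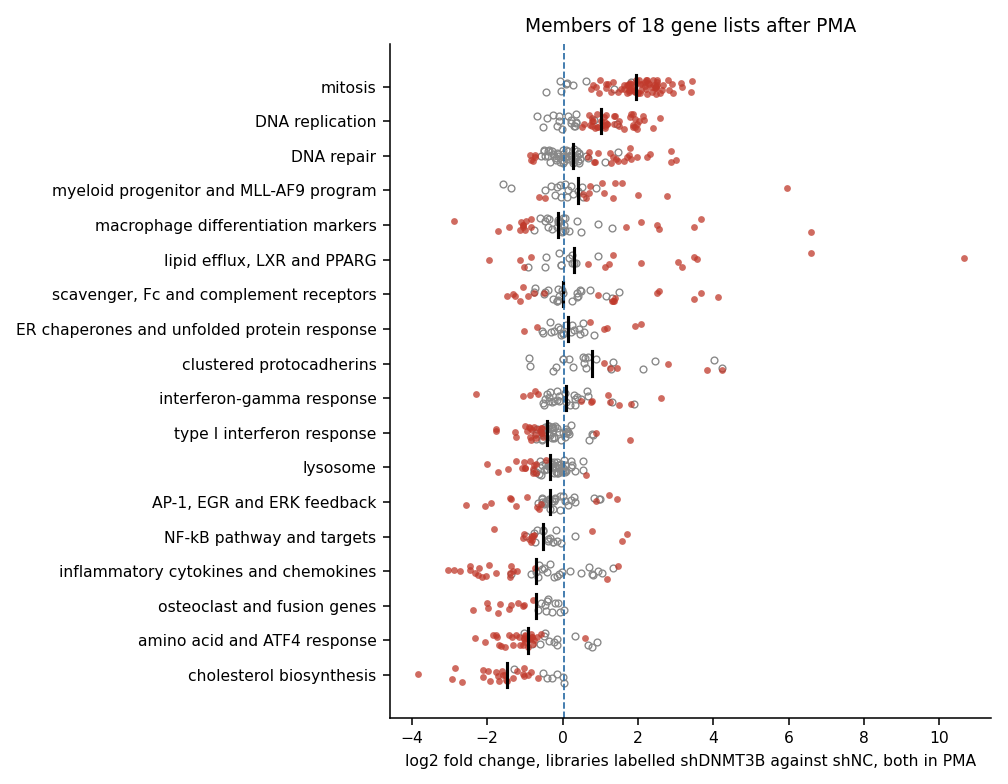
Log2 fold change of each member of 18 gene lists, shDNMT3B-labelled against shNC libraries in PMA, with filled red points for genes at an edgeR adjusted p under 0.05, open points for the others, a black bar at the list median and a dashed line at the median of all genes (0.04). Mitosis lies highest (median 1.96) and cholesterol biosynthesis lowest (−1.49); the farthest point to the right is PDK4, whose fitted value rests on 0 counts in shNC.

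Inflammatory cytokines and chemokines, which PMA induces in THP-1 cells, were mostly lower where they differed. Of 41 genes 2 were higher and 18 lower (6 and 23 with the replicate block), with a median of −0.72, and 13 or 14 were lower with any 1 of the 4 libraries left out. The median was much the same before PMA: in DMSO it was −0.73, with 1 higher and 6 lower (2 and 11 with the block). In the test of the difference of the PMA response 2 members were higher and 3 lower, with a median of 0.09. CXCL8, the neutrophil attractant interleukin-8, is named after its values were seen and was at 5050 and 4050 CPM in shNC and at 923 and 726 CPM in the shDNMT3B-labelled libraries (−2.46, SE 0.33, edgeR adjusted p = 3.1e-04). IL1B, the cytokine interleukin-1 beta, was at 2600 and 2200 against 1000 and 941 CPM (−1.31, SE 0.24, edgeR adjusted p = 0.00241). CXCL1 and CXCL2, chemokines of the same family as CXCL8, differed by −2.25 and −2.13 (edgeR adjusted p = 2.4e-05 and 1.6e-05). PTGS2, the inducible cyclooxygenase, was at 27.5 and 34.4 against 4.28 and 5.03 CPM (−2.73, edgeR adjusted p = 2.8e-05). TNF overlapped between the groups, with 10.9 and 17 against 11.7 and 12.2 CPM (−0.22, edgeR adjusted p = 0.686). Against shDNMT1 after PMA, 21 of the 41 genes were higher in the shDNMT3B-labelled libraries and 6 lower, with a median of 1.32. Against shUHRF1 the order was the other way, with 3 higher and 17 lower and a median of −0.78.

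The pathways upstream showed a like lean with fewer calls. In the NF-kB list 3 of 27 genes were higher and 9 lower (4 to 7 lower with any 1 library left out, and 15 with the block), and among them were both TNFAIP6, a secreted hyaluronan-binding protein (−1.83, edgeR adjusted p = 2.2e-04), and the kinase gene MAP3K8 (1.58, edgeR adjusted p = 4.5e-04). Among 40 genes of AP-1, EGR and ERK feedback, which answer to the kinase cascade that PMA starts, 3 were higher and 10 lower (1 higher and 6 to 8 lower with any 1 library left out, and 5 and 17 with the block). EGR3, an immediate early transcription factor, was at 17.3 and 15.4 against 2.57 and 2.98 CPM (−2.56, edgeR adjusted p = 6.5e-05). DUSP10, a phosphatase that switches off stress kinases, was at 302 and 336 against 82.1 and 87.2 CPM (−1.91, edgeR adjusted p = 5.4e-06).

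Genes of osteoclasts and cell fusion were lower without exception among those called. Of 22, 0 were higher and 11 lower, with a median of −0.72, and 8 or 9 were lower with any 1 of the 4 libraries left out and 17 with the replicate block. An unadjusted p under 0.05 and DESeq2 each gave 0 higher and 15 lower. ITGB3, the beta-3 integrin, was at 205 and 225 CPM in shNC and at 37.9 and 44.9 CPM in the shDNMT3B-labelled libraries (−2.38, SE 0.25, edgeR adjusted p = 1.1e-04). DCSTAMP, a membrane protein needed for fusion, was at 349 and 285 against 115 and 85.1 CPM (−1.66, edgeR adjusted p = 5.7e-04). CTSK, the bone-degrading protease cathepsin K, was at 29.1 and 22 against 8.11 and 7.59 CPM (−1.70, edgeR adjusted p = 2.2e-04). Lysosome genes had 15 of 58 lower and 1 higher, with 25 and 2 under the block, and 6 to 11 lower with any 1 of the 4 libraries left out. The cholesterol exporter of the lysosome, NPC1, differed by −1.23 (282 and 314 against 129 and 126 CPM, edgeR adjusted p = 1.5e-04).

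Secreted proteases and their inhibitors had 10 of 34 lower and 5 higher (17 and 7 with the replicate block), and 5 to 7 were lower and 2 to 4 higher with any 1 of the 4 libraries left out. TIMP3, an inhibitor of metalloproteinases, was at 3000 and 2300 against 856 and 622 CPM (−1.84, edgeR adjusted p = 2.4e-04). MMP7, a metalloproteinase, was at 224 and 187 against 36.3 and 28.8 CPM (−2.66, edgeR adjusted p = 2.6e-04). MMP17 went the other way, at 2.68 and 2.09 against 11.3 and 13.2 CPM (2.34, edgeR adjusted p = 2.7e-05). INHBA, the activin A subunit, was among the 12 largest falls, at 236 and 213 against 14.1 and 14.5 CPM (−3.98, SE 0.28, edgeR adjusted p = 3.5e-06).

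The amino acid and ATF4 response changed side between the treatments. ATF4 is translated when amino acids run short or proteins misfold, and it drives genes for amino acid synthesis and uptake. In PMA 31 of 45 genes were lower in the shDNMT3B-labelled libraries and 1 higher, with a median of −0.91, and 23 to 27 were lower with any 1 of the 4 libraries left out. In DMSO 10 were higher and 0 lower, with a median of 0.49, and 5 to 7 were higher with any 1 of the 4 DMSO libraries left out. With the replicate block, 28 were higher and 2 lower in DMSO. In the test of the difference between the treatments 33 of the 45 genes responded lower to PMA in the shDNMT3B line and 1 higher.

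SESN2, which senses leucine and restrains mTORC1, was at 52.4 and 52.3 CPM in shNC PMA and at 17.3 and 16.6 CPM in shDNMT3B-labelled PMA (−1.63, SE 0.14, edgeR adjusted p = 1.7e-05). In DMSO it was at 14.4 and 15.6 CPM in shNC and at 46.8 and 42.3 CPM in shDNMT3B (1.57, edgeR adjusted p = 3.2e-05). Its level was thus higher in PMA than in DMSO in shNC and lower in the shDNMT3B line (difference of the responses −3.20, SE 0.20, edgeR adjusted p = 4.4e-06). CHAC1, which degrades glutathione, was at 16.3 and 15.4 against 3.37 and 4.33 CPM in PMA (−2.05, edgeR adjusted p = 4.0e-05) and at 21.7 and 17.4 against 46.6 and 36.8 CPM in DMSO (1.09, edgeR adjusted p = 0.00483). SLC7A11, the cystine importer, was at 346 and 403 against 150 and 144 CPM in PMA (−1.35, edgeR adjusted p = 0.00136) and at 18.5 and 24.6 against 68.0 and 96.5 CPM in DMSO (1.93, edgeR adjusted p = 3.2e-04). PSAT1, an enzyme of serine synthesis, was at 125 and 124 against 37.8 and 35.2 CPM in PMA (−1.77, edgeR adjusted p = 5.8e-05) and at 193 and 185 against 286 and 289 CPM in DMSO, a difference that did not pass (0.61, edgeR adjusted p = 0.0827). VEGFA, a growth factor of blood vessels that also answers to ATF4, fell by 2.32 in PMA (edgeR adjusted p = 1.7e-05). In DMSO the shDNMT3B line was the high one of the 4 lines, with a summed list level of 7130 and 6560 CPM. The DMSO sums were 5260 and 4850 CPM in shNC, 2790 and 2880 CPM in shUHRF1 and 2660 and 2600 CPM in shDNMT1. After PMA the shNC line was the high one: shUHRF1 and shDNMT1 stood at 12.7 and 14.2 and at 7.69 and 6.91 CPM for PSAT1, and 8 and 11 of the 45 genes were higher in the shDNMT3B-labelled libraries than in these lines, with 6 and 1 lower.
The promoter of CHAC1 carries the CARE letters to which ATF4 dimers bind, TGATGNAA, read on the other strand and shown in capitals (RefSeq, GRCh38.p14, chr15:40953242-40953470, plus strand).
CHAC1: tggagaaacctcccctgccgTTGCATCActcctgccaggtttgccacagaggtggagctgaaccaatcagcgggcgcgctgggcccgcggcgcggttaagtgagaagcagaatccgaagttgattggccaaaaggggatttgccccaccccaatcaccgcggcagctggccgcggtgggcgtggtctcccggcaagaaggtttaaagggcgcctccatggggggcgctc
These letters were in 4 of 27 lower members with a promoter in the table (14.8%) and in 1.54% of all promoters. Of all 36 listed members with a promoter, called or not, 4 held them (11.1%).

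The type I interferon response was lower in the shDNMT3B line than in shNC before PMA and less so after it. In DMSO 55 of 61 genes were lower and 0 higher, with a median of −2.62. In PMA 21 were lower and 2 higher, with a median of −0.41, 7 to 12 were lower with any 1 of the 4 libraries left out, and 37 were lower and 5 higher with the replicate block. The summed level was 5840 and 5370 CPM in shNC DMSO, 1180 and 1130 CPM in shDNMT3B DMSO, 25200 and 21400 CPM in shNC PMA and 18600 and 16800 CPM in shDNMT3B-labelled PMA. In DMSO shNC was the line that stood apart, since the sums were 2080 and 2090 CPM in shUHRF1 and 1030 and 989 CPM in shDNMT1. The PMA response of 48 of the 61 genes was higher in the shDNMT3B line and of 0 lower.

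IFI44, an interferon-induced protein, was at 76.9 and 53.6 CPM in shNC DMSO and at 1.11 and 1.22 CPM in shDNMT3B DMSO (−5.80, edgeR adjusted p = 6.0e-08), while the PMA libraries overlapped, with 232 and 210 against 260 and 222 CPM (0.12, edgeR adjusted p = 0.675). RSAD2, the antiviral protein viperin, was at 1370 and 1120 against 385 and 346 CPM in PMA (−1.76, SE 0.18, edgeR adjusted p = 4.4e-05). IFIH1, the sensor of double-stranded RNA MDA5, was at 509 and 492 against 253 and 246 CPM in PMA (−1.0, SE 0.16, edgeR adjusted p = 0.00109) and differed by −1.99 in DMSO (edgeR adjusted p = 1.7e-05). MX1, a GTPase that blocks viruses, stood against its list after PMA, at 142 and 142 CPM in shNC and at 467 and 503 CPM in the shDNMT3B-labelled libraries (1.78, SE 0.24, edgeR adjusted p = 2.7e-04), although in DMSO it was lower, at 95.1 and 114 against 4.39 and 5.6 CPM (−4.38, edgeR adjusted p = 1.2e-06). The shUHRF1 and shDNMT1 PMA libraries held 130 to 174 CPM of MX1, near shNC.
IFIH1 is shown for its interferon-stimulated response element, the letters TTTC and TTTC with any 2 bases between, read on the other strand, which lies close to the start (RefSeq, GRCh38.p14, chr2:162318685-162318804, minus strand, printed in the direction of transcription, the element in capitals).
IFIH1: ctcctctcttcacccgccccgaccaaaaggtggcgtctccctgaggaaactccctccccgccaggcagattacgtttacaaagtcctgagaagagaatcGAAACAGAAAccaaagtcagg
The element was in 9 of 18 lower members with a promoter in the table (50%) and in 2.46% of all promoters. It was in 25 of all 48 listed members with a promoter (52.1%), called or not.

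**Figure D4:**
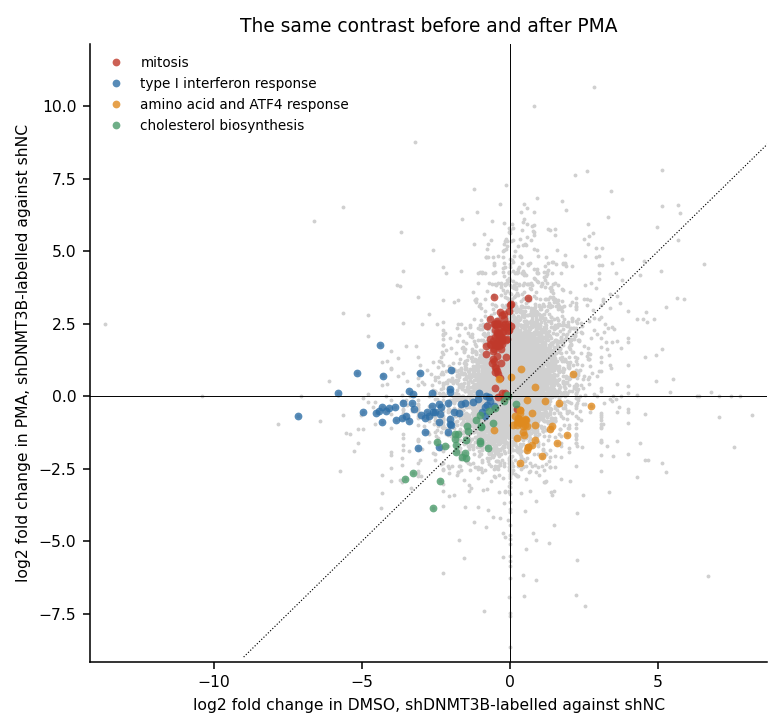
Log2 fold change of shDNMT3B-labelled against shNC libraries in PMA (vertical) and in DMSO (horizontal) for every gene tested (grey) and for the members of 4 lists in color, with a dotted line where both are equal. Mitosis genes lie above 0 in PMA (median 1.96) and have a median of −0.39 in DMSO, type I interferon genes lie far to the left, ATF4 genes lie right of 0 and below it, and cholesterol genes lie along the dotted line.

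Against all 3 other lines in PMA, 305 genes were higher (1.85%) and 163 lower (0.988%). The contrasts share the shDNMT3B-labelled PMA libraries, so 1 unusual library moves them together: without shDNMT3B PMA replicate 1 the counts were 111 and 49, and without replicate 2 they were 138 and 42. Leaving out 1 library of another line gave 174 to 236 higher and 93 to 129 lower. For scale, 1145 genes were higher (6.94%) and 884 lower (5.36%) than in shUHRF1, and 850 higher (5.15%) and 664 lower (4.02%) than in shDNMT1.

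AKR1C2, an aldo-keto reductase that acts on steroids, was among the genes higher than in every other line, at 22 and 19.4 CPM against 1.68 and 0.794 in shNC, with a log2 fold change of 4.01 (edgeR adjusted p = 4.0e-05) and of 4.80 and 5.21 against shUHRF1 and shDNMT1. It was high already in DMSO, at 220 and 202 against 18.2 and 12.9 CPM (3.76, edgeR adjusted p = 3.2e-05). AKR1C3, a neighbouring paralog, was at 5.14 and 6.03 against 0.210 and 0.217 CPM in PMA (4.67, edgeR adjusted p = 9.5e-06). The AKR1C genes are close copies, so how reads were divided among them is uncertain. MPDZ, a scaffold protein of cell junctions, was at 4.97 and 7.02 CPM against 0 and 0.577 in shNC (4.51, edgeR adjusted p = 0.00166). TLX1, a homeobox gene, had 29 counts in the shDNMT3B-labelled libraries and 1 in shNC, a ratio of 30.2 with a 95% counting interval from 5 to 1230.

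Among the genes lower than in every other line, LIPG, endothelial lipase, was at 1.2 and 1.35 CPM against 19.1 and 17.6 in shNC (−3.85, edgeR adjusted p = 3.6e-05). ANKRD1, a muscle ankyrin repeat protein and a known target of YAP, was at 53.8 and 58.1 CPM against 325 and 302 (−2.49, edgeR adjusted p = 2.7e-04), while shUHRF1 and shDNMT1 held 247 to 452 CPM. KANK4, a regulator of the actin cytoskeleton, had 2 counts in the shDNMT3B-labelled libraries and 391 in shNC, a ratio of 188 with a 95% counting interval from 51.7 to 1560. TPSD1, a tryptase gene of the mast cell granule, was at 1.37 and 1.06 CPM against 21.1 and 13.3 (−3.80, edgeR adjusted p = 2.4e-04), and TPSAB1 differed alike (−3.33, edgeR adjusted p = 3.8e-04). The tryptase genes are near-identical, and their counts cannot be assigned to 1 of them with certainty.

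**Figure D5:**
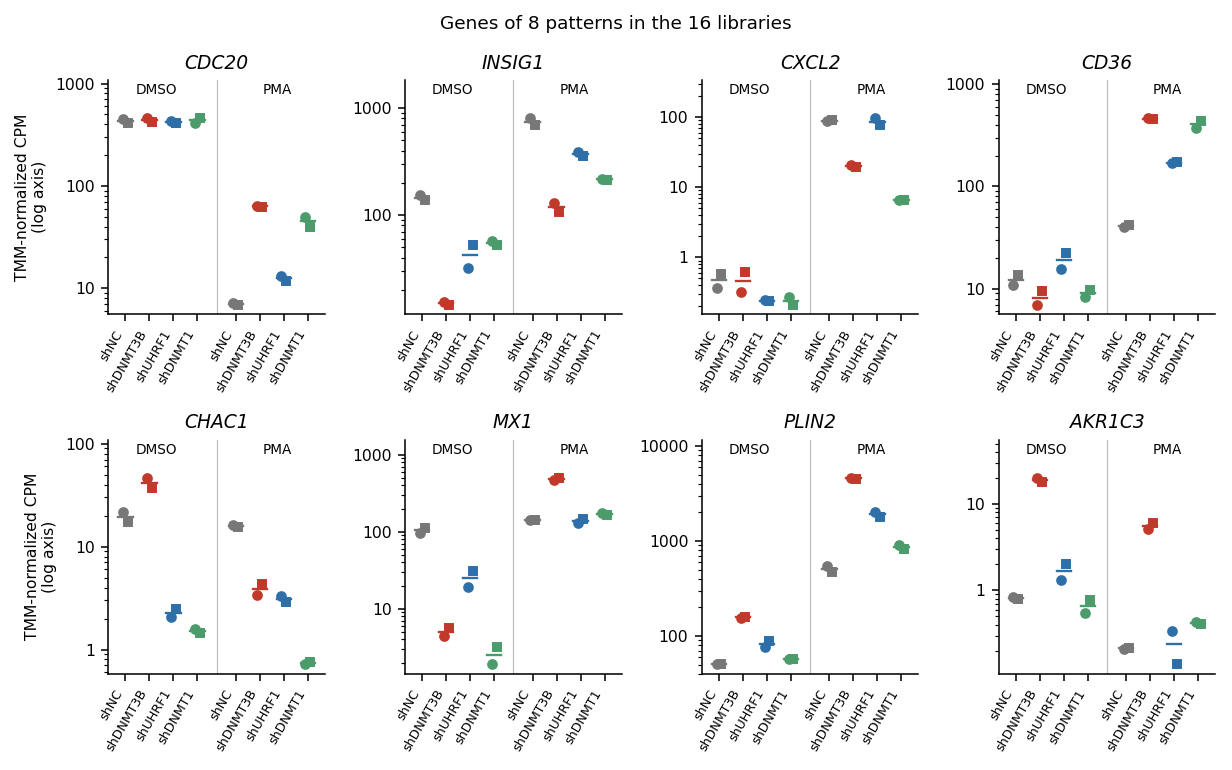
TMM-normalized CPM (log axis) of CDC20, INSIG1, CXCL2, CD36, CHAC1, MX1, PLIN2 and AKR1C3 in the 16 libraries, by line and treatment, with circles for replicate 1, squares for replicate 2 and a bar at the mean of the 2 libraries. After PMA the shDNMT3B-labelled libraries lie above shNC for CDC20, CD36, MX1, PLIN2 and AKR1C3 and below it for INSIG1, CXCL2 and CHAC1, and for CDC20 and CD36 the shDNMT1 libraries lie close to them.

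Of other cell types, the T cell markers CD2, CD3D and CD3E and the erythroid markers HBB, HBA1, ALAS2, AHSP, HBG1 and HBG2 had no count in the 4 libraries. The summed NK cell markers were at 74.7 and 70.2 CPM in shNC and at 223 and 177 CPM in the shDNMT3B-labelled libraries, through the adhesion molecule gene NCAM1 (1.33, edgeR adjusted p = 8.5e-05) and the granule protein gene GNLY (2.38, edgeR adjusted p = 0.00389). The 4 dendritic cell markers summed to 5.57 and 4.98 CPM in shNC and to 21 and 21.1 CPM in the shDNMT3B-labelled libraries. That rise is FLT3, described above with the progenitor genes, while CD1C was at 2.15 and 2.53 against 0.800 and 0.851 CPM (−1.49, edgeR adjusted p = 0.106, and 0.0309 with the block) and CLEC9A and CD207 had no count. The 4 mast cell and basophil markers summed to 7.88 and 5.99 CPM in shNC and to 0.914 and 0.496 CPM in the shDNMT3B-labelled libraries, which is TPSAB1, and of them CPA3 and MS4A2 had no count. Their part in the results was not tested.

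Gene groups that are often silenced by methylation were read beside the 11.3% of all genes higher and 9.05% lower by the same rule. Of 26 clustered protocadherins 6 were higher and 0 lower, with 1 to 3 higher when any 1 of the 4 libraries was left out, and PCDHB5, a neuronal adhesion protein, was at 2.15 and 2.45 against 7.43 and 5.11 CPM (1.45, edgeR adjusted p = 0.00172). Of 15 germline and cancer testis genes 2 were higher and 1 lower (6 and 2 with the replicate block). TEX19, which acts in germ cells, had 40 counts in the shDNMT3B-labelled libraries and 1 in shNC, a ratio of 41.6 with a 95% counting interval from 7.05 to 1680. Of 26 imprinted genes 4 were higher and 1 lower (9 and 2 with the block, and 2 and 0 with any 1 library left out), ZNF331 among the higher ones (0.946 and 0.866 against 7.60 and 6.74 CPM, 2.97, edgeR adjusted p = 5.6e-05). DNA methylation was not analysed here.

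The counts of the remaining lists were small and moved with the libraries and with the block, and they are given as higher and lower. Glycolysis and hypoxia genes had 4 and 7 of 38, with 1 or 2 and 5 when any 1 of the 4 libraries was left out and 6 and 10 with the replicate block. HK2, a hexokinase of that list, was at 429 and 410 against 91.3 and 86.4 CPM (−2.24, SE 0.15, edgeR adjusted p = 3.1e-06). The interferon-gamma response had 8 and 5 of 38, with 2 or 3 and 3 or 4 when a library was left out and 14 and 10 with the block. Toll-like receptors and the inflammasome had 6 and 6 of 38, with 1 to 3 and 2 or 3 when a library was left out and 10 and 12 with the block. STING1, the adaptor of DNA sensing, was at 24.0 and 22.2 against 76.0 and 59.8 CPM (1.55, edgeR adjusted p = 2.9e-04). MHC class II had 2 and 0 of 14, with 0 or 1 higher when a library was left out and 3 and 1 with the block, and MHC class I and processing had 1 and 0 of 17 and 7 and 3 with the block.

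Cell adhesion had 6 and 9 of 42, with 3 or 4 and 3 to 6 when a library was left out and 10 and 16 with the block. ITGAL, the integrin chain CD11a, was at 57.2 and 47.7 against 160 and 150 CPM (1.57, edgeR adjusted p = 3.6e-05). GTPase regulators had 8 and 6 of 58, with 5 to 7 and 3 or 4 when a library was left out and 13 and 18 with the block. M2 genes had 4 and 4 of 17 and fell to 1 or 2 and 0 or 1 when a library was left out. NRF2 targets had 5 and 5 of 30, with 2 or 3 and 3 or 4 when a library was left out and 9 and 6 with the block. Chaperones of the endoplasmic reticulum had 5 and 2 of 26, with 1 to 4 and 0 or 1 when a library was left out and 8 and 4 with the block. Early granulocyte genes had 2 and 3 of 24, with 1 or 2 and 0 to 2 when a library was left out and 4 and 8 with the block. Ribosome biogenesis had 0 and 1 of 40 without the block and 2 and 14 with it. Other blood lineages had 2 and 1 of 14 and 4 and 2 with the block, and epithelial and fibroblast markers 0 of 3 in either direction by edgeR, with 1 higher at an unadjusted p under 0.05 and by DESeq2.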

How the data were processed

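Stranded mRNA libraries of THP-1 cells were sequenced as 150 bp paired reads. Alignment by the authors was to hg38 (STAR 2.4.0b). By the study's methods, HTSeq 0.6.1p1 gave the counts per gene, Cufflinks 2.1.1 gave expression levels that were not used here, and edgeR served for normalization factors. The values deposited by the authors are whole-number counts per Ensembl gene and were used as raw counts. Genes were named by GENCODE release 44.

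Counts of all 16 libraries (13883556 to 23151864 per library) were fitted in 1 model of 8 groups by robust quasi-likelihood with TMM scaling (edgeR 4.0.16, R 4.3.3). Low genes were left out with filterByExpr at a minimum count of 10 and a minimum total of 15, and 8 residual degrees of freedom remained. P values were adjusted over the 16503 genes tested (Benjamini-Hochberg). Genes were counted at 0.05 and a 1.5-fold change; list members, single genes and differences of the PMA response at 0.05 alone, and PMA-responsive genes at a log2 fold change above 1. Libraries of equal replicate number, as the names of the count columns give it, deviated alike from their group means. The correlation across genes was 0.22 to 0.508 in the 28 pairs of groups, and 0.269 for the main pair, so the replicate number was a block in a second fit. Replicates differed beyond sampling noise (chi-square per degree of freedom 42.1 to 148.8), and intervals of counts cover counting error only.

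The members, gene lists and alternatives were chosen with earlier results of these data known. Genes named are those the study names, the 12 largest rises and falls, up to 4 members per list (8 for lists with over 20 called) by adjusted p, up to 10 per direction apart from all lines or by p in the difference of the PMA response, and the monocyte markers. CXCL8 and PPARG were added after their values were seen, and only part of the genes is printed. The fit was also run on simulated data. Those libraries were drawn independently, without the shared deviation of equal replicate numbers, so the run cannot show how that deviation bears on the p values. Alternatives were DESeq2 1.42.0, upper-quartile factors, no filter, only the libraries compared, an exact test after 3 rounds of DEGES, the block, and each library left out, its lone partner being taken to vary like the other groups. IL6 did not pass the filter.

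Some genes are not reported here.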

Additional observations from a re-analysis of the deposited data

Results flagged for a closer look

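The contrast of the shDNMT3B line with shNC differed between DMSO and PMA in 838 genes with a higher value in PMA and in 280 with a lower one, by edgeR's interaction test at an adjusted p under 0.05. Every gene below stands out by this test, among the 10 with the smallest p per direction, and each value is the log2 difference of the contrast in PMA from that in DMSO. Of the genes whose contrast was higher in PMA than in DMSO, interferon-induced genes held 6 places, with MX1 at 6.16, IFI44 at 5.92, OAS2 at 3.95, OAS3 at 3.67, MX2 at 3.53 and IFIT2 at 3.37. The others were CD36 at 4.08, the monocyte chemokine receptor CCR2 at 3.13, CDC20 at 3.13 and the kinetochore gene ZWINT at 2.62. The 6 interferon-induced genes differed from shNC by −5.80 to −3.61 in DMSO. In PMA itself MX1 differed from shNC by 1.78, IFI44 by 0.12, IFIT2 by −0.25, MX2 by −0.37, OAS3 by −0.51 and OAS2 by −0.57. Of the genes whose contrast was lower in PMA than in DMSO, 6 belong to the amino acid and ATF4 list, with SLC7A11 at −3.28, SESN2 at −3.20, CHAC1 at −3.14, VEGFA at −2.66, DDIT4 at −2.49 and PSAT1 at −2.38. The others were PAX8-AS1 at −3.07, the growth factor HBEGF at −2.29, the sphingosine receptor S1PR3 at −2.26 and SH3BP5 at −1.99. The DMSO and PMA libraries of a line also differ in their mitochondrial share, and the part of this was not tested.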

How the results depend on the processing

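Of 225 genes named by the rules 190 were called, of which 153 kept the call in all 10 alternatives and 37 lost it in at least 1. None reversed, none lost the call with the replicate block and 22 gained it. The block raised the counts higher and lower to 2684 and 1966 in PMA, 837 and 1140 in DMSO, 2074 and 1150 for the difference of the PMA response, 2000 and 1631 against shUHRF1, 1847 and 1405 against shDNMT1, and 700 and 422 against all 3 lines. Without the filter on low counts the DMSO counts were 430 and 776, those lower than in shDNMT1 1082 and those lower than in all lines 342. A fit of only the libraries compared gave 23 and 75 in DMSO. DESeq2 gave 482 for the lower PMA response. DEGES with the exact test gave 1333 lower than in shUHRF1, 1350 higher than in shDNMT1, and 491 and 296 against all lines, and was not run for the difference of the PMA response. The causes were not tested. Leaving out 1 library, which removes samples, gave 927 to 1132 higher and 571 to 725 lower in PMA (1882 to 2442 and 1613 to 1945 with the block, 1945 without shNC PMA replicate 2), 74 to 134 and 203 to 268 in DMSO, 520 to 674 and 141 to 217 for the difference of the response, 565 to 645 and 348 to 524 against shUHRF1, 365 to 407 and 203 to 343 against shDNMT1, and 111 to 236 and 42 to 129 against all lines. With 2 libraries per group, small differences could be missed, and adjusted p alone called 1864 and 1493 genes in PMA where 1786 and 1294 also passed the 1.5-fold limit.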

Other observations

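Genes of chromosome 17 were shifted as a group in the shDNMT3B-labelled libraries. The median log2 fold change of its 989 tested genes was 0.26 against shNC in PMA, 0.25 against shNC in DMSO, 0.22 against shUHRF1 in PMA and 0.28 against shDNMT1 in PMA. Over the first 10 Mb, with 177 genes, these medians were 0.42, 0.40, 0.31 and 0.45. The 3 PMA contrasts share the shDNMT3B-labelled PMA libraries, the DMSO contrast shares none with them, and neighbouring genes are not independent.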
